A study of Homo sapiens with 8 samples.

Results

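Exons that sit between long introns were examined in U2OS cells, a human osteosarcoma line, after depletion of CHERP. An exon was included if it was 51 to 300 nt long and the introns on both sides were 10000 nt or more in the table of skipped exon (SE) events. The rule used these lengths alone and found 3124 exons in 1895 genes, of 48505 distinct SE exons in whole cells. Each exon was represented by its event with the most reads among the 4074 events that met the rule. The cytoplasmic table held the same event for 1162 of the exons, and 221 exons that met the rule in the cytoplasmic table alone were not included.

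The cells were given 20 nM of siRNA for 48 h, either against EGFP, a gene that they lack and which served as the control, or siRNA #2 against CHERP. RNA came from whole cells or from the cytoplasm, which was the supernatant after lysis with NP-40. Each siRNA and fraction had 2 biological replicates, so that 8 stranded mRNA libraries were compared. A single siRNA against CHERP was used in a single cell line, and effects of its sequence on other genes cannot be told apart from the loss of CHERP. Reads on SE events of CHERP itself numbered 54 and 46 in the EGFP siRNA libraries of whole cells and 2 and 2 in the CHERP siRNA libraries. Reads on its alternative 3′ splice site events numbered 49 and 31 against 1 and 8 in whole cells. In the cytoplasm, reads on its alternative 3′ splice site events numbered 31 and 21 against 3 and 4.

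Vertebrate exons between long introns are thought to be recognised as a unit. U2AF and the U2 snRNP bind the 3′ splice site region upstream of the exon, the U1 snRNP binds the 5′ splice site downstream, and contacts across the exon join both ends. Short introns can instead be recognised across the intron. CHERP associates with the U2 snRNP, and the comparison asked which exons of the long-intron kind were included or skipped more often without it.

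The splice sites of the exons with the largest changes in whole cells are shown first, since both sites of such an exon have to be found between long stretches of intron. They were read from GRCh37 (hg19). Capitals mark the 3 exon bases of each site and lower case marks the intron, with 20 intron bases before the exon and 6 after it.
BTBD10 3′ splice site: aacactgctcttttatgtagGTT
BTBD10 5′ splice site: AAGgtaggt
TSC22D2 3′ splice site: ttacttaaactctttgctagAAT
TSC22D2 5′ splice site: TTGgtaaga
TFPI 3′ splice site: ttctctccatgtgcacacagGAC
TFPI 5′ splice site: ACTgtgaga
IMMP1L 3′ splice site: gtggatttgacttctttcagGTG
IMMP1L 5′ splice site: CAGgtcatc
ZBTB8OS 3′ splice site: tcaaattttctttcttgcagTGG
ZBTB8OS 5′ splice site: AAGgtaaat

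The BTBD10 exon was at chr11:13466571-13466728 on the minus strand and the TSC22D2 exon at chr3:150155985-150156141 on the plus strand. The TFPI exon was at chr2:188394091-188394212, the IMMP1L exon at chr11:31499048-31499306 and the ZBTB8OS exon at chr1:33099552-33099711, all on the minus strand. Sites were scored by log2 odds of their bases, under the base frequencies of all SE exons, against a background of 0.25 per base. The 5′ splice sites of IMMP1L, TFPI and TSC22D2 scored 3.55, 3.97 and 7.9, below the median of 8.57 over all 3124 exons. Those of ZBTB8OS and BTBD10 scored 10.1 and 10.4. The 3′ splice sites of TFPI, TSC22D2, IMMP1L and BTBD10 scored 6.3, 6.87, 9.26 and 9.35, below the median of 10.9. That of ZBTB8OS scored 11.9.

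Among the fully coding exons that changed, CD44 variant exon 6 is shown because its skipping rose. CHMP3 and PRIM2 are shown because their inclusion approached completeness. Sequences of the EIF3E and EIF3H exons, which are also fully coding and changed, are not shown. Capitals mark the exon and lower case marks 20 intron bases before it and 6 after it.
CD44 exon with both sites: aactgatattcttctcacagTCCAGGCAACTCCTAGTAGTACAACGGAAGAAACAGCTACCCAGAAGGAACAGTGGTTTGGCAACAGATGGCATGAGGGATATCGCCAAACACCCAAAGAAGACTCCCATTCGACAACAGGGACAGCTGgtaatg
CHMP3 exon with both sites: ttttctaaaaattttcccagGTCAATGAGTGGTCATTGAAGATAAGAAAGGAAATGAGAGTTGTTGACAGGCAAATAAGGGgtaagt
PRIM2 exon with both sites: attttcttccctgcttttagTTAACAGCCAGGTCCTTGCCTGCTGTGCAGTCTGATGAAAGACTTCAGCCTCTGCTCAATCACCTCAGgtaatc

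The CD44 exon was at chr11:35226059-35226187 on the plus strand, the CHMP3 exon at chr2:86769375-86769435 on the minus strand and the PRIM2 exon at chr6:57372288-57372355 on the plus strand. The PRIM2 exon had the strongest 3′ splice site of these, with a score of 11.9, and the CD44 exon the weakest, with 7.72.

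In whole cells, few of the exons between long introns changed after CHERP depletion. With a quasi-binomial test on inclusion and skipping reads and a false discovery rate (FDR) under 0.05 over all SE events, 11 of the 3124 exons changed, or 0.352% (95% Wilson interval 0.197 to 0.629, which covers counting error only). Inclusion rose for 8 of them, in EIF3E, BTBD10, TSC22D2, TFPI, IMMP1L, CHMP3, PRIM2 and ZBTB8OS. Inclusion fell for 3, in CD44, MIR4435-1HG and EIF3H. Over all 63977 SE events of whole cells the share was 0.893%, with 291 events that rose and 280 that fell. The median difference in inclusion level, CHERP minus EGFP, was 0.0 over the exons, with quartiles of -0.0432 and 0.0423. At an unadjusted p under 0.05 there were 82 exons with a higher level and 66 with a lower level, which is 4.74% of the exons against 5.54% of all SE events.

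The 11 exons had more reads than the others, with a median over exons of 321 per library against 41.8. Low reads limited which changes could be seen, since 666 of the exons, or 21.3%, averaged fewer than 10 reads in a library. The test also missed most of the changes put into simulated data, for whole cells and for the cytoplasm. The adjusted p-values of single exons can be too small. The moderation gave every event the dispersion common at its depth, and on simulated data in which the dispersion varied between events the test made more false calls than its threshold allows. With the larger of an event's own and the common dispersion, 9 of the 11 passed, without IMMP1L and ZBTB8OS, where 0.68% of all SE events passed. That setting, too, made more false calls than its threshold allows on the same simulated data. With limma on the log odds no exon passed, where 0.0% of all SE events passed, and 259 exons had an unadjusted p under 0.05, or 8.29% against 8.2% of all SE events.

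**Figure D1:**
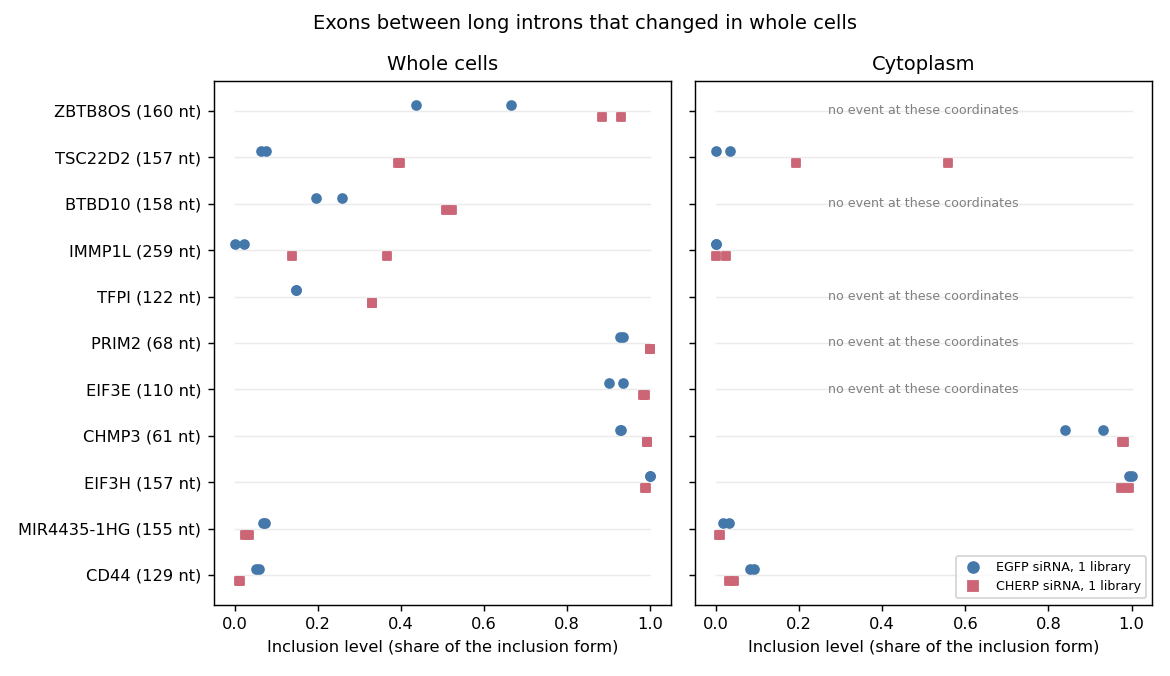
Inclusion level of the 11 exons that changed in whole cells, as the share of the inclusion form per library from 0 to 1 (horizontal axis), with 2 EGFP siRNA libraries as circles and 2 CHERP siRNA libraries as squares, in whole cells (left) and cytoplasm (right). In whole cells the libraries of the 2 siRNAs did not overlap for any of the 11, which were chosen by their change, where 26.0% of all SE events with a level in all 4 libraries did not overlap, and in the cytoplasm 6 had an event at the same coordinates.

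Of the 5 largest rises, 4 were in exons that control cells mostly skipped, and the other, in ZBTB8OS, was in an exon at a middle level. In BTBD10, which encodes a BTB domain protein, the 158-nt exon was the second of 9 exons of an annotated transcript and holds the start of its coding sequence, with introns of 17910 and 23185 nt. Its inclusion level was 0.258 and 0.196 in the EGFP siRNA libraries and 0.523 and 0.509 in the CHERP siRNA libraries. The CHERP libraries lay close together and well above both controls, with a difference of 0.289 ± 0.0433 (SE, from counting error scaled by the dispersion) and an FDR of 2.33e-07. The other BTBD10 exon in the set was not called, and its levels stood at 0.975 in the controls on average.

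TSC22D2 encodes a member of the TSC22 domain family. Its 157-nt exon was the third of 5 exons of a transcript annotated for nonsense-mediated decay, in which the coding sequence ends within the exon. The control libraries had levels of 0.064 and 0.0756, and the CHERP siRNA libraries 0.397 and 0.394. Both CHERP siRNA libraries lay far above both controls, with a difference of 0.326 ± 0.0636 and an FDR of 3.92e-06. Inclusion reads numbered 16 and 13 in the controls and 44 and 53 after depletion, whereas skipping reads numbered 112 and 76 against 32 and 39. A second, 72-nt coding exon of TSC22D2, which shares those skipping reads, had levels of 0.0233 and 0.0579 against 0.186 and 0.225, with an FDR of 0.0901.

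TFPI encodes the tissue factor pathway inhibitor, a brake on the start of blood clotting. Its 122-nt exon lay in the 5′ UTR, as the third of 5 exons of a transcript. The level was 0.148 in both EGFP siRNA libraries and 0.331 in both CHERP siRNA libraries, a difference of 0.184 ± 0.034 with an FDR of 1.67e-05.

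IMMP1L encodes a subunit of the inner mitochondrial membrane peptidase, and its 259-nt exon lay in the 5′ UTR between introns of 31759 and 43930 nt. Its level was 0.0218 and 0.0 in the controls against 0.137 and 0.366 after depletion, so that the CHERP libraries differed by more from each other than the controls did. The difference was 0.241 ± 0.0792 with an FDR of 0.00166, on 2 and 0 inclusion reads in the controls and 8 and 21 after depletion. With its own larger dispersion the FDR was 0.0891. Without the second CHERP library the difference was 0.126 with an FDR of 0.831, and without the second EGFP library it was 0.23 with an FDR of 0.338.

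ZBTB8OS encodes archease, a cofactor of the tRNA ligase complex. The 160-nt exon, the second of 6 of its transcript, holds the start of the coding sequence. Its level was 0.665 and 0.436 in the controls against 0.883 and 0.93 after CHERP depletion. The controls lay far apart, the groups did not overlap, and the difference was 0.356 ± 0.105 with an FDR of 0.049. The FDR was 0.0593 in the setting with the larger of own and common dispersion. It was 0.05 when events that averaged under 10 reads were left out. The call held in 1 of the 4 fits that left out a library. Leaving out the second EGFP library gave a difference of 0.241 and an FDR of 0.915, and the FDR was 0.512 and 0.684 without the first and the second CHERP library. A stretch of 122 of its 160 bases has a near-identical copy at 1 other place of the genome, at 95% identity or more, so its reads may be shared.

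A group of exons that were nearly always included rose further. EIF3E and EIF3H encode subunits of the translation initiation factor eIF3, and their exons had the most reads of the 11. The 110-nt EIF3E exon, exon 10 of 13 of its main transcript, had a level of 0.933 and 0.9 in the controls against 0.987 and 0.982 after depletion. Its skipping reads fell from 85 and 168 to 16 and 23, beside 2072 and 2676 inclusion reads in the controls and 2108 and 2178 after depletion. The difference of 0.0678 ± 0.00874 had an FDR of 4.49e-12. A stretch of 58 of its bases has a near-identical copy elsewhere.

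CHMP3 encodes a subunit of ESCRT-III, the complex that cuts membrane necks. Its 61-nt coding exon rose from 0.929 and 0.926 to 0.991 and 0.993, with skipping reads of 19 and 23 in the controls and 3 and 2 after depletion. The difference was 0.0649 ± 0.0179 and the FDR 0.0144, which became 0.0848 to 0.436 without the second EGFP library or either CHERP library. In PRIM2, the large subunit of DNA primase, the 68-nt exon followed the longest intron among the 11, with 125321 nt. Its level was 0.928 and 0.933 in the controls and 1.0 in both CHERP siRNA libraries, which held 0 skipping reads beside 303 and 316 inclusion reads. The FDR was 0.03, and it was 0.0632 to 0.557 when any 1 library was left out. Another exon of this high-inclusion kind moved the other way. The 157-nt EIF3H exon, the second of 8 of its transcript, was at 0.998 in both EGFP siRNA libraries and at 0.986 and 0.989 in the CHERP siRNA libraries. That fall of -0.0108 ± 0.00312, with an FDR of 0.0317, rested on 3 and 3 skipping reads in the controls and 25 and 18 after depletion. Its FDR was 0.0856 to 0.769 when any 1 library was left out.

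Among rarely used exons, 2 were included less often after CHERP depletion. CD44 encodes the receptor for hyaluronan, and its variable exons are spliced into the stem of the protein outside the cell. The 129-nt exon that changed is variant exon 6, exon 10 of 18 of the annotated transcript that holds it. Its downstream flank of 10211 nt in the event is not an annotated intron. Its level was 0.0575 and 0.0519 in the controls against 0.011 and 0.0133 after CHERP depletion, a difference of -0.0426 ± 0.0126 with an FDR of 0.00367. The FDR was 0.0556 to 0.177 when either CHERP library or the second EGFP library was left out. The inclusion reads were 23 and 27 against 17 and 19, whereas the skipping reads were 199 and 260 against 808 and 746. The fall in level thus came with more skipping reads in both CHERP siRNA libraries, at similar inclusion reads. MIR4435-1HG is the symbol that the SE events carry, whereas the exon annotation names the transcript with this exon MIR4435-2HG-262. The gene hosts a microRNA and makes a long noncoding RNA. Its 155-nt exon had a level of 0.0723 and 0.0686 in the controls against 0.035 and 0.0261 after depletion, a difference of -0.0399 ± 0.00974 with an FDR of 0.0231. The FDR was 0.0728 to 0.776 when either CHERP library or the second EGFP library was left out. All 155 bases have a near-identical copy at 1 other place of the genome, so the split of reads between the copies is uncertain.

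**Figure D2:**
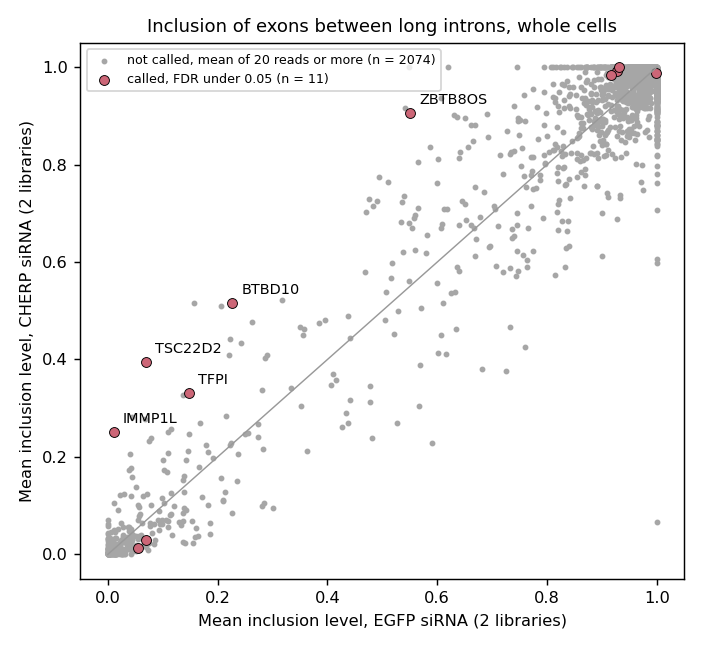
Mean inclusion level over 2 libraries with EGFP siRNA (horizontal axis) and CHERP siRNA (vertical axis) in whole cells, each a share from 0 to 1, for the 2085 exons whose libraries averaged 20 reads or more. The 11 that changed are circled in red and the other 2074 are grey, the line marks equal levels, and most points lie at levels near 1.

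The inclusion level in control cells was high for most of the exons. The median with EGFP siRNA was 0.943, and 1498 exons, or 48.0%, were above 0.95. A further 551 exons, or 17.6%, were between 0.2 and 0.8, and 302, or 9.67%, were at 0.05 or less. The precision differed between these groups. Among exons with at least 20 reads, the median 95% half-width of the difference was 0.046 above a level of 0.95 and 0.219 between 0.2 and 0.8, so that changes of middle-level exons had to be larger to be seen. Of the exons that rose, 3 were among the 581 with a control level over 0.8 to 0.95, and 2 among those over 0.2 to 0.8. Another 2 were among the 192 over 0.05 to 0.2, and 1 was at 0.05 or less. Of the exons that fell, 2 were over 0.05 to 0.2 and 1 was over 0.95.

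The level differed with the part of the transcript that the exon belongs to in the GENCODE annotation. The 2159 coding exons, 69.1% of all, had a median level of 0.97 in control cells. The 322 exons within the 5′ UTR had a median of 0.356, and the 151 exons found in transcripts of nonsense-mediated decay alone had a median of 0.0431, with 51.7% of them under 0.05. There were 5 calls among coding exons, 2 among exons of the 5′ UTR and 2 among the 211 partly coding exons. A further 1 was among the 160 exons of noncoding RNA genes and 1 among the exons of nonsense-mediated decay. Over all the exons 11 of 3124, or 0.352%, were called, and these counts are too few to compare the classes. At an unadjusted p under 0.05 the share was 4.31% of coding exons, 5.9% of exons of the 5′ UTR and 3.31% of the exons of nonsense-mediated decay. It was 7.11% of partly coding exons and 6.88% of exons of noncoding RNA genes, against 4.74% of all the exons and 5.54% of all SE events. The differences between the classes were not tested.

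**Figure D3:**
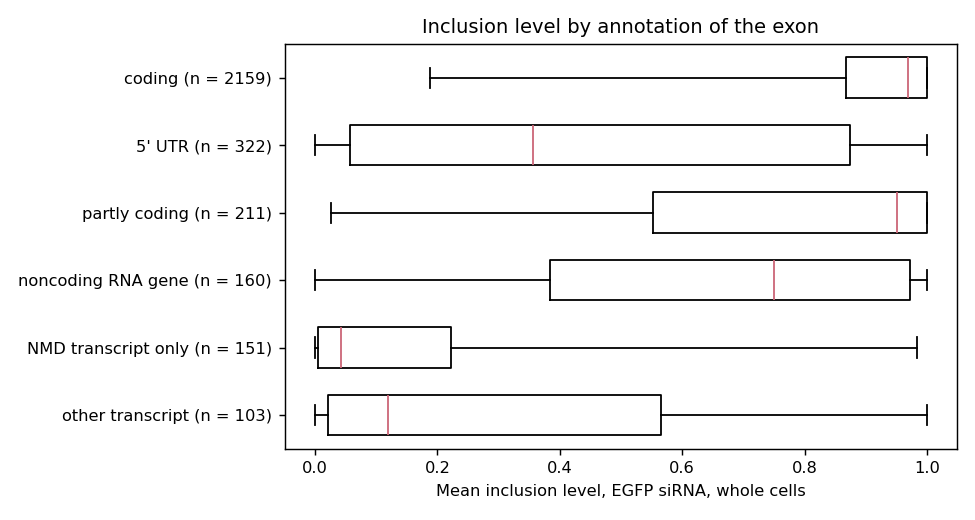
Mean inclusion level with EGFP siRNA in whole cells, a share from 0 to 1 (horizontal axis), by annotation of the exon. Boxes span the quartiles, the red line is the median and whiskers reach the 5th and 95th percentiles, and coding exons had a median of 0.97 against 0.0431 for exons of nonsense-mediated decay transcripts.

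The flanking introns had medians of 22030.5 nt upstream and 18613 nt downstream, and the longest had 346379 nt. For 2196 exons, or 70.3%, both were annotated introns. Among the 11 that changed, both were annotated for 7, or 63.6%. The EIF3E, TSC22D2, CD44 and ZBTB8OS exons each had 1 flank that is not an annotated intron. Longer introns came with lower levels and fewer reads. The 143 exons with an intron of at least 100000 nt had a median level of 0.828 and a median of 27.8 reads. The PRIM2 exon was the 1 of them that changed, where 0.352% of all the exons changed. Several exons of the set could come from the same gene, so they are not independent. PTK2, which encodes focal adhesion kinase, had the most, with 13 exons at control levels of 0.0157 to 1.0. None of these was called, which says little for 13 exons at that overall share.

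The share of exons that changed was higher next to shorter introns, and its order was the same within well-measured exons. These shares are a description, and their difference was not tested. Over all 43233 exons of 51 to 300 nt, each placed by the shorter intron of its event with the most reads, 204 of 19600 changed where that intron was under 1000 nt, or 1.04% (95% Wilson interval 0.908 to 1.19). The share was 0.812% from 1000 nt up to 5000 nt, 0.469% from 5000 nt up to 10000 nt and 0.403% (0.219 to 0.741) at 10000 nt or more. This last group had 2479 exons, fewer than 3124, since some exons had more reads on an event with shorter introns. The intervals cover counting error only and take the exons as independent, which exons of the same gene are not. The reads differed in the same order, with medians of 111 and 42.8 per library.

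With at least 50 reads and a control level of 0.05 to 0.95, the shares were 6.93% (5.87 to 8.17) under 1000 nt and 2.56% (1.3 to 4.96) at 10000 nt or more. Splice sites differed along the same order. The median 3′ splice site score was 8.37 under 1000 nt and 10.9 at 10000 nt or more, and the median 5′ splice site score was 7.61 and 8.57. The median GC content of the 200 intron bases on each side was 44.2% under 1000 nt and 36.0% at 10000 nt or more. The part of reads, splice sites and base composition in the shares of changed exons was not tested. Around the length limit of the rule, exons with a shorter intron from 9000 nt up to the limit had a median control level of 0.959, with 0 of 369 called, and those with 10000 to 11000 nt had 0.948, with 1 of 321 called.

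**Figure D4:**
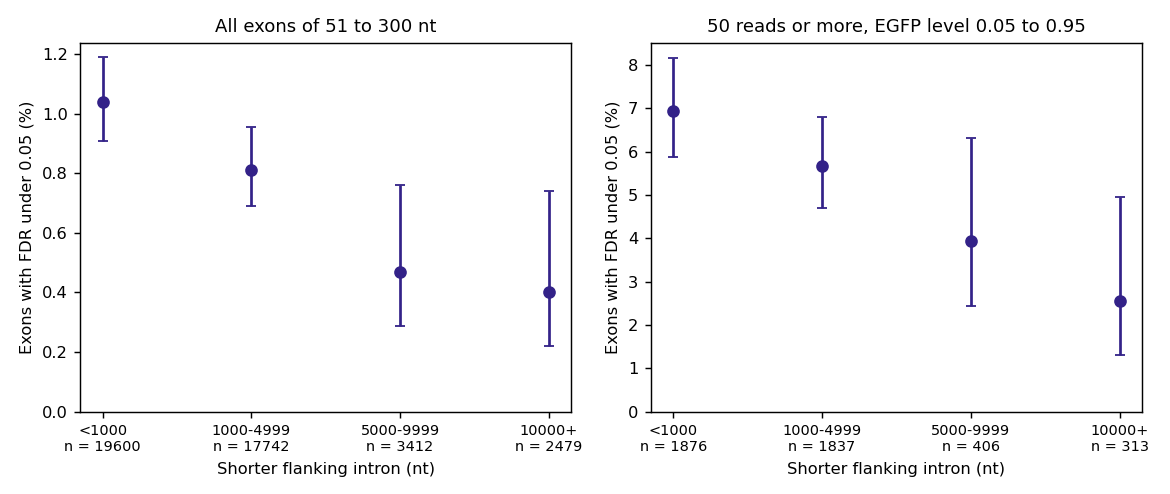
Share of exons of 51 to 300 nt that changed in whole cells at an FDR under 0.05, in percent (vertical axis), by length of the shorter flanking intron (horizontal axis), for all exons (left) and for those with at least 50 reads and a control level of 0.05 to 0.95 (right). Points are shares and bars are 95% Wilson intervals, and the share went from 1.04% to 0.403% on the left and from 6.93% to 2.56% on the right.

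Compared with the other exons between long introns, the 11 that changed had a median 3′ splice site score of 8.83 against 10.9 and a median 5′ splice site score of 7.9 against 8.57. Pyrimidines made up a median of 64.7% of the 17 bases that precede the last 3 intron bases, against 76.5%. The 11 were longer, with a median of 155 nt against 115 nt, and 1 of them, the CD44 exon, was a multiple of 3 in length, against 1217 of 3113. These values describe 11 exons that were picked by the test, which itself favoured exons with many reads, and no test was made.

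The 6 lists of genes by function described here are those that held no changed exon. Over all the exons the share that changed was 0.352%, so that lists of this size say little by holding none. The lists do not hold every gene of a function, and CHMP3, for example, was on none of these 6. The lists covered 52 exons of cell division genes, 68 of chromatin and transcription regulators, 68 of RNA processing genes, 102 of kinases and phosphatases, 79 of the ubiquitin system and 94 of membrane traffic and autophagy. The median differences of these 6 lists lay between -0.00831 and 0.013, against 0.0 over all the exons. At an unadjusted p under 0.05 the lists had 1 to 5 exons each, or 1.92% to 7.35%, against 4.74% over all the exons. The CD44 exon was on a further list, which is not reported here.

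In the cytoplasm, none of the 1162 exons passed the quasi-binomial test, where 0.254% of all 31924 SE events passed. There were 12 exons with a higher and 20 with a lower level at an unadjusted p under 0.05, or 2.75% against 3.41% of all SE events. With limma no exon and no other SE event passed, and 97 exons had an unadjusted p under 0.05, or 8.35% against 8.22%. Depth was lower, with a median of 17.2 reads per exon and library, against 42.0 in whole cells. The 6 exons that changed in whole cells and had a cytoplasmic event showed these levels. CD44 variant exon 6 was at 0.0924 and 0.0822 in the controls against 0.0432 and 0.0305 after depletion, with an FDR of 0.192. The TSC22D2 exon was at 0.0 and 0.0329 against 0.192 and 0.559, on 5 to 31 reads per library, with an FDR of 0.281. For both, the libraries of the siRNAs did not overlap, as for 28.3% of the exons with a level in all 4 cytoplasmic libraries and 23.8% of all such SE events.

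The CHMP3 exon was at 0.84 and 0.932 in the controls against 0.981 and 0.976 after depletion in the cytoplasm, with an FDR of 0.708. The MIR4435-1HG exon was at 0.0176 and 0.031 against 0.0107 and 0.00814, and the EIF3H exon at 1.0 and 0.994 against 0.993 and 0.974. The IMMP1L exon had 1 inclusion read in all 4 libraries together and was not measurable at this depth. Each of the other 5 differences had the sign seen in whole cells.

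The difference between fractions was tested as an interaction of siRNA and fraction. None of the 1162 exons passed, where 0.0% of all 23892 shared SE events passed, and 39 had an unadjusted p under 0.05, or 3.36% against 2.89%. On simulated data the interaction test missed most of the changes put in. Without an interaction call, a change in whole cells is not shown to be absent from the cytoplasm. In control cells, the 530 exons with at least 20 reads in both fractions had a median difference of 0.0 between cytoplasm and whole cells, with 38 lower and 26 higher by at least 0.1. The reads of the fractions differed in length, which cannot be told apart from the fraction.

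A milder assumption on the spread brought further exons past the threshold. With the dispersion estimated from events that had at least 10 reads of the rarer form, 21 exons passed in whole cells, or 0.672% against 1.28% of all SE events, with 15 higher and 6 lower after depletion. In the cytoplasm 10 passed, or 0.861% against 1.03%, with 3 higher and 7 lower. The following were named after their values were seen. MCTP1, a calcium-binding membrane protein, had a 60-nt coding exon at 0.187 and 0.227 in the controls against 0.487 and 0.533 after depletion, with an FDR of 0.0894 under the common dispersion. RBPJ, the DNA-binding partner of Notch, had a 183-nt partly coding exon at 0.448 and 0.516 against 0.216 and 0.263, with an FDR of 0.137. In the cytoplasm, a 108-nt exon of FIP1L1, a factor of mRNA 3′ end formation, was at 0.221 and 0.308 against 0.451 and 0.459, with an FDR of 0.362. Of the lower ones, a 264-nt coding exon of SAMD4A, an RNA-binding protein, was at 0.384 and 0.478 against 0.223 and 0.188, with an FDR of 0.159. None of these 4 passed the test as first set.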

How the data were processed

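Whole-cell and cytoplasmic RNA of U2OS cells given EGFP or CHERP siRNA was sequenced in 8 libraries, 2 per group. The authors mapped reads to hg19 with STAR 2.5.2b and ran rMATS, whose version is not given in the sources used here. The deposited SE tables join the reads of both libraries of a group in 1 cell, as raw inclusion and skipping reads without normalization, beside effective lengths. Their p-values, FDR and inclusion levels are the authors' own and were not used. The sample records state 20% confluence at transfection.

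The inclusion level was inclusion reads per effective length over the sum for both forms. The skipping form had an effective length of 144 in whole cells and 73 in the cytoplasm. SE reads came to 19287081 to 23480646 per whole-cell library and 3826409 to 4685633 per cytoplasmic library. A quasi-binomial model was fitted to every SE event with reads in both groups, squeezeVar (limma 3.58.1, run in R 4.3.3) moderated the dispersion along the log mean reads with a floor of 1, and p-values were adjusted by Benjamini-Hochberg over all SE events of a fraction at 0.05. Groups with reads of 1 form alone gave no degrees of freedom. The dispersion used in whole cells was 1.94 to 3.62. Events shared by both fractions were fitted with an interaction of siRNA and fraction in the same way. The test was also run on simulated data, which were built from the reads and the fitted dispersion of these libraries.

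Exon annotation was GENCODE 44 lifted to GRCh37, whereas the authors used GENCODE 19. AG preceded 99.89% of the 48505 exons. Copies were searched with blastn (40 bases or more at 95% identity). Called exons with at least 20 reads and no overlap between siRNAs were named, up to 15 per direction in whole cells and 6 in the cytoplasm. The exons and gene lists were chosen with earlier results of these data known, and the 1 gene list that held a changed exon is not reported here.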

Additional observations from a re-analysis of the deposited data

How the results depend on the processing

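In whole cells the count of 11 changed exons was 9 with the larger of own and common dispersion, 10 with a mean of at least 10 or 50 reads, 10 with the event that had the most skipping reads, and 9 among exons with at least 50 reads and a level of 0.05 to 0.95, an alternative chosen after seeing the data. It was 21 with the dispersion from events with 10 reads of the rarer form, 45 without a trend of the dispersion, 0 with limma, 5 with a difference of at least 0.1, 33 of 7147 with introns of at least 5000 nt and 4 of 1031 with introns of at least 20000 nt. Leaving out 1 library gave 4 to 13, with 13 without the first EGFP library, 4 without the second EGFP library, 5 without the first CHERP library and 4 without the second CHERP library. EIF3E, BTBD10, TSC22D2 and TFPI passed each time, IMMP1L in 2 of the 4 fits, CD44, CHMP3, MIR4435-1HG and ZBTB8OS in 1, without the first EGFP library, and PRIM2 and EIF3H in none. In the cytoplasm the count of 0 became 10 with the rarer-form dispersion, 10 without a trend and 3 of 2582 with introns of at least 5000 nt, and leaving out 1 library gave 0. The interaction count was 0 in each alternative. The cytoplasmic difference of IMMP1L ranged from 0.0, without the second CHERP library, to 0.0238, without the first. The cause of these shifts was not tested, other than where fewer exons or libraries entered. No paired analysis was possible because the libraries within a cell of the tables carry no replicate number. A pair of libraries per group says little about the spread of any 1 exon, and low reads limit many exons.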
